A study of Homo sapiens with 6 samples.

Results

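GDF15 and 9 ligands and antagonists of the TGF-beta family were followed in 12Z cells exposed to frankincense extract. The 10 genes were chosen by name, as GDF15, TGFB1, TGFB2, TGFB3, INHBA, INHBB, BMP4, GREM1, FST and FSTL3, out of 60616 genes in the tables. On counts, GDF15 RNA was 8.61-fold higher after the extract. The RNAs of the 3 antagonists among these genes (GREM1, FST and FSTL3) were higher, and those of the 5 other ligands that could be tested were lower. All 9 tested genes differed at adjusted p under 0.05 by edgeR, beside 62.9% of all tested genes. The differences for TGFB2, INHBA and FST did not pass that threshold under some alternative scalings. INHBB was too low to test.

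12Z is an immortalised, wild-type human endometriotic line. In endometriosis, tissue resembling the uterine lining grows at other sites. Cells were kept in medium with 10% charcoal-stripped serum, which is low in steroid hormones. In 3 libraries the cells had received 70 ug/mL of frankincense extract, made from Boswellia resin, in DMSO for 12 h, and in 3 libraries DMSO alone. The line stands for 1 source of cells, and separate cultures are not stated for the replicates, so the p-values measure the spread between these libraries, which may be technical.

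Ligands of the TGF-beta family are secreted dimers that bring together a pair of type I and type II receptor kinases, which phosphorylate SMAD transcription factors. TGF-beta and activin ligands act mainly through SMAD2 and SMAD3, and BMPs through SMAD1, SMAD5 and SMAD9. Secreted antagonists bind the ligands before they reach a receptor: follistatin (FST) and FSTL3 bind activins, and gremlin 1 (GREM1) binds BMPs. GDF15 is a divergent member that signals through GFRAL, a receptor of the hindbrain, and its gene is known to respond to cellular stress. In endometrium, TGF-beta and activin are known for their part in decidualisation, tissue repair and fibrosis.

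Depth was 22615150 to 27615196 expected counts per library, at which 3 counts correspond to 0.109 to 0.133 CPM (counts scaled to a common library size), counting error only. Among markers of the line, 5 of 7 epithelial genes were at 1 TPM or above in every library (TPM is a level per gene length, relative to all RNA of the library). KRT8, a keratin of simple epithelia, was at 678 to 779 TPM, but CDH1, the epithelial cadherin, was at 0 to 0.23 TPM. Of 6 stromal markers 5 were above that level too, with VIM, vimentin, at 1943 to 2096 TPM. Within these lists single markers differed between groups: mean TPM was 98.2 in vehicle and 48.4 after the extract for THY1, 25.2 and 13.3 for PDGFRB, 9.51 and 5.45 for HAND2 (all stromal), and 5.84 and 13.2 for the keratin KRT7. The more abundant keratins went the other way, from 771 to 684 for KRT8, 661 to 582 for KRT18 and 150 to 118 for KRT19. EPCAM rose from 1.12 to 1.97 and PAX8 from 2.92 to 3.39. The 7 epithelial markers summed to 1576 to 1608 TPM in vehicle and 1364 to 1423 after the extract. Summed endothelial markers were at 0.05 to 0.27 TPM. The 4 mesothelial markers summed to 34.0 to 36.6 TPM in vehicle and 36.1 to 43.75 TPM after the extract. Of them 2 were at 1 TPM or above in every library, MSLN at 27.5 to 35.7 TPM and WT1 at 5.38 to 7.63 TPM. The 4 immune markers summed to 30.2 to 33.8 TPM in vehicle and 35.1 to 63.95 after the extract, nearly all of it CD68 (means of 29.2 and 46.2 TPM), with CD14 at 2.53 and 0.413 and CD3E listed at 0. The part of these differences in the members' values was not tested. Mitochondrial genes took 14.0% to 14.7% of counts in vehicle and 9.50% to 11.0% after extract, and frankincense replicate 3 stood apart on the second principal component, which held 7.99% of the variance. In bulk RNA, fewer cells of a type and less RNA per cell cannot be told apart.

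Stretches before the start sites of 5 genes are shown, because GDF15, GREM1 and FSTL3 rose most among the members, and TGFB1 and TGFB3 are the most and the least abundant TGF-beta isoform. They come from RefSeq's GRCh38.p14 table, which held 14 windows for the 10 genes, each covering the 250 bases before a start. Capitals mark matches, on either strand, to a TATA box (TATAAA), a GC box (GGGCGG), the core of a cAMP response element (TGACGT), a C/EBP-ATF composite element (TGATGNAA), an AP-1 site (TGANTCA), a SMAD palindrome (GTCTAGAC) or a CCAAT box (CCAAT). Overlapping matches run together. Some windows lie in annotated exons of GENCODE 29: 241 of the 250 bases of GDF15 are in exons of its other transcripts, which start upstream, and all 250 of the first GREM1 window are in an exon of AC090877.2 on the opposite strand, with its last bases in a GREM1 exon as well. GDF15 and GREM1 are given from 40 to 11 bases before the start (chr19:18386118-18386147, plus strand, and chr15:32717964-32717993, plus strand).
GDF15: agtccggggacTATAAAggccggtccggca
GREM1: tgccgccggcatttaaacgggagacggcgc
FSTL3 is given from 250 to 24 bases before the start (chr19:676142-676368, plus strand), and TGFB1 and the downstream start of TGFB3 over their last 200 bases (chr19:41353923-41354122 and chr14:75981996-75982195, both minus strand).
FSTL3: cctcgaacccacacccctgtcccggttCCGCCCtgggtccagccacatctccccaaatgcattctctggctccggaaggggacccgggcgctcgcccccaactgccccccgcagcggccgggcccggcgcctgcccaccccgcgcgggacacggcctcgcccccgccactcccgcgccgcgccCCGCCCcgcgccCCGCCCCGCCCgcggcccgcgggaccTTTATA
TGFB1: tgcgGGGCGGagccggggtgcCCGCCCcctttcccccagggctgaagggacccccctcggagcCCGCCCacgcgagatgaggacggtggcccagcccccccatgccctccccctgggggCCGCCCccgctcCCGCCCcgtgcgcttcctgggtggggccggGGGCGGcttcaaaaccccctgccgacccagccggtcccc
TGFB3: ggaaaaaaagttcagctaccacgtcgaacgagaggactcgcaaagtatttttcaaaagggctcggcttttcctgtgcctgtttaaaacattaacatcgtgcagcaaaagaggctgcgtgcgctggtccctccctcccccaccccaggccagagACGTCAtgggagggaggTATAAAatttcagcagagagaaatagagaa
Matches occurred in genes that moved either way. A TATA box match was in 5 of the 14 windows, and in 10.7% of all 35116 windows of this length. Of the 5 members with such a window, GDF15 and FSTL3 were higher and TGFB2, TGFB3 and INHBA lower. TGFB1 held 6 GC boxes, a motif found in 42.6% of all windows, and its window was 76.8% G and C against a median of 58%. The cAMP response element core was in 2 of the 14 windows, those of TGFB2 and the downstream start of TGFB3, and in 7.1% of all windows. The AP-1 site was in 1 of the 14, that of FST (6.57% of all). CCAAT was in 4 of the 14 windows (32% of all). The composite element (3.14% of all) and the SMAD palindrome (0.182% of all) matched 0 of the 14 windows. A match describes these letters and not a bound site.

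GDF15 had the largest change of the members. GDF15 (ENSG00000130513, GRCh38 chromosome 19, 18374731 to 18389176, plus strand) encodes a stress-induced secreted cytokine. Its level was 39.6, 41.4 and 37.9 TPM in the vehicle libraries and 419, 377 and 420 TPM after the extract. The groups were far apart, with the lowest treated library well above the highest vehicle library. The mean went from 39.6 ± 1.74 to 405 ± 24.8 TPM (SD, n = 3). On counts the log2 fold change was 3.11 ± 0.069 (SE, edgeR adjusted p = 2.6e-13), the 41st highest value among 16719 tested genes. By mean TPM the gene moved from rank 3428 to rank 277 of all 60616 genes.

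**Figure D1:**
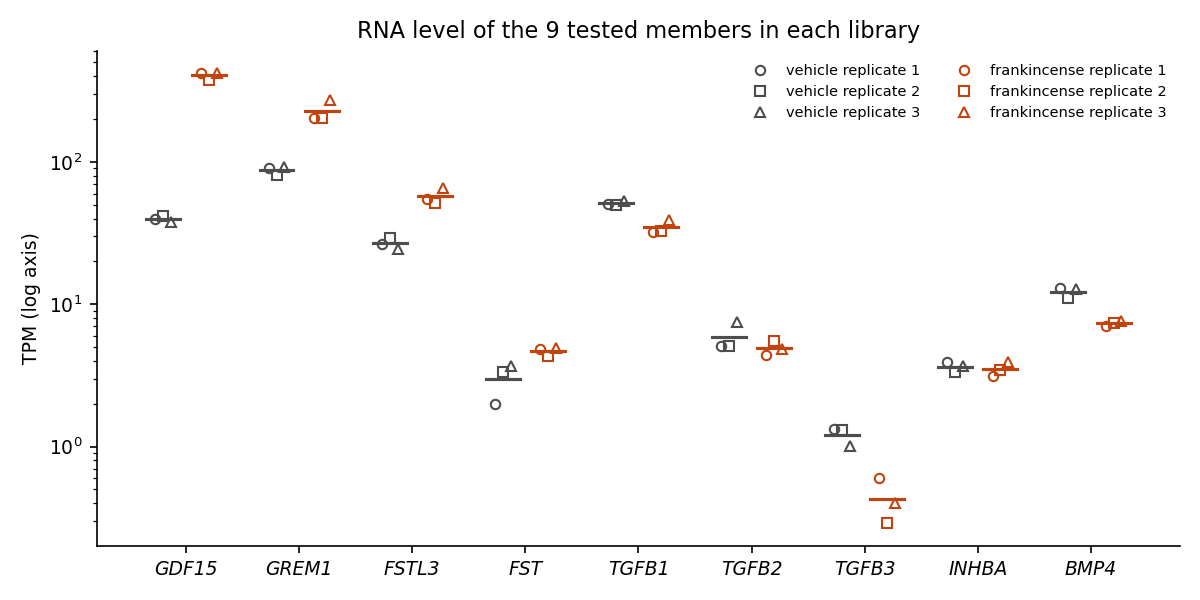
TPM of the 9 tested members on a log axis, 3 vehicle (grey) and 3 frankincense (orange) libraries, with symbols for replicates and bars for group means. GDF15 lies at 37.9 to 41.4 TPM in vehicle and 377 to 420 TPM after the extract, while the groups of TGFB2 and INHBA overlap.

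All 3 antagonists rose. Over the members, 4 of 9 tested genes were called higher, beside 31.9% of all tested genes, and 5 lower, beside 31.0%. In all 9 of 9 were called, beside 62.9% of all tested genes, and the CPM of the groups did not overlap for 8 of 9, beside 67.5%.

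GREM1 (ENSG00000166923, chromosome 15, 32717974 to 32745107), the BMP antagonist gremlin 1, was at 90.97, 80.6 and 92.4 TPM in vehicle and at 205, 203 and 271 TPM after the extract. Frankincense replicate 3 was the highest, and every treated library exceeded every vehicle library. The log2 fold change was 1.10 ± 0.069 (edgeR adjusted p = 5.048e-09), a 2.15-fold rise on counts and a 2.57-fold rise of mean TPM. FSTL3 (ENSG00000070404, chromosome 19, 676365 to 683399), a follistatin-like protein that binds activins, was at 26.7, 29.2 and 24.5 TPM in vehicle and 55.4, 51.5 and 65.2 TPM after the extract. These groups did not overlap either, and the log2 fold change was 0.97 ± 0.068 (edgeR adjusted p = 1.8e-08), 1.96-fold. FST (ENSG00000134363, chromosome 5, 53480409 to 53487134), follistatin, was much lower, at 1.99, 3.34 and 3.68 TPM in vehicle and 4.87, 4.35 and 4.97 TPM after the extract. Vehicle replicate 1 was the lowest, and the treated libraries all lay above the vehicle ones. The log2 fold change of FST was 0.72 ± 0.13 (edgeR adjusted p = 3.1e-04), 1.64-fold, on 79 to 200 counts per library.

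The TGF-beta isoforms were lower to different degrees. TGFB1 (ENSG00000105329, chromosome 19, 41301587 to 41353911, minus strand), the most abundant isoform here, was at 50.7, 49.9 and 53.6 TPM in vehicle and 32.4, 32.96 and 39.4 TPM after the extract. The groups did not overlap, and frankincense replicate 3 was nearest to vehicle. It fell by 0.76 ± 0.055 on the log2 scale (edgeR adjusted p = 2.3e-08), 1.69-fold. GENCODE 29 gives TGFB1 and HNRNPUL1, on the other strand, 215 shared exon bases (6.64% of the exon bases of TGFB1); whether reads there were counted by strand is not stated.

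TGFB3 (ENSG00000119699, chromosome 14, 75958099 to 75982991, minus strand) had the largest fall of the members. It held 61, 92 and 64 counts in the vehicle libraries and 23, 15 and 21 counts after the extract. Every treated library was below every vehicle library at this low level. It fell by 1.86 ± 0.23 on the log2 scale (edgeR adjusted p = 5.3e-06), 3.62-fold, and its mean went from 1.22 ± 0.18 to 0.43 ± 0.16 TPM.

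TGFB2 (ENSG00000092969, chromosome 1, 218346235 to 218444619) was at 13.2, 13.7 and 14.96 CPM in vehicle and 9.44, 10.3 and 13.3 CPM after the extract, and the groups overlapped through frankincense replicate 3. It fell by 0.34 ± 0.12 (edgeR adjusted p = 0.019; 95% interval -0.59 to -0.094), a call that was lost without frankincense replicate 1, frankincense replicate 2 or vehicle replicate 3 (adjusted p of 0.0839, 0.0837 and 0.093) and with library size scaling (0.069). The annotated transcript TGFB2-OT1 lies on the same strand and shares 26.6% of TGFB2's exon bases. RSEM gave that entry a mean of 146 counts in vehicle and 122 after the extract, so the split between them is uncertain.

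Among activin subunits and BMPs, the changes were a small fall and a clearer one. INHBA (ENSG00000122641, chromosome 7, 41667168 to 41705834, minus strand) encodes the subunit of activin A. It was at 17.7, 16.5 and 17.5 CPM in vehicle and 13.4, 13.0 and 15.3 CPM after the extract, without overlap. It fell by 0.31 ± 0.083 (edgeR adjusted p = 0.0045), 1.24-fold. In TPM its groups overlapped, with means of 3.65 ± 0.29 and 3.51 ± 0.41, and limma on log2(TPM + 1) gave -0.044 (adjusted p = 0.756). INHBB (ENSG00000163083, chromosome 2, 120346143 to 120351808), the subunit of activin B, held 5 counts over the vehicle libraries and 2 over the treated ones, so its direction was not detectable at this depth.

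BMP4 (ENSG00000125378, chromosome 14, 53949736 to 53958761, minus strand), a ligand of BMP receptors, was at 12.98, 10.99 and 12.7 TPM in vehicle and 7.09, 7.34 and 7.68 TPM after the extract. The groups were well separated, and the treated libraries lay close together. It fell by 0.95 ± 0.089 on the log2 scale (edgeR adjusted p = 3.2e-07), 1.93-fold.

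**Figure D2:**
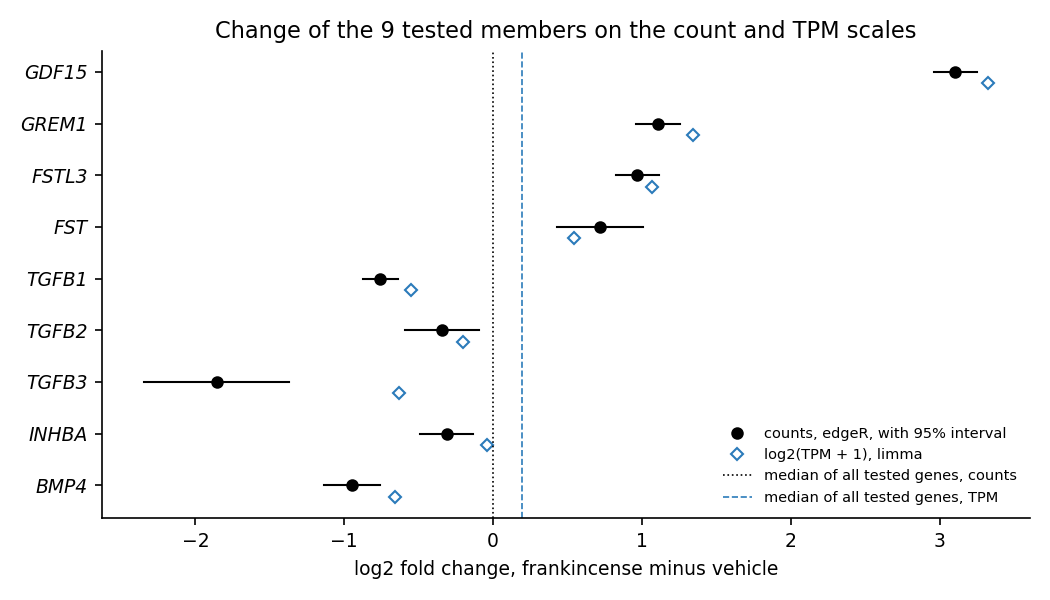
Log2 fold change of the 9 tested members, frankincense minus vehicle, from counts (black, with 95% interval) and from log2(TPM + 1) (blue diamonds). Dotted and dashed lines are the medians of all tested genes on each scale, -0.0016 and 0.20, and each member keeps its side of 0 on both scales.

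The TPM scale moved the median of all tested genes to 0.20 on the log2 scale, whereas it lay at -0.0016 on the count scale used above. All 9 tested members kept their sign on both scales. On the TPM scale the 4 that rose were called again, beside 43.8% of all tested genes, and 3 were called lower (TGFB1, TGFB3 and BMP4), beside 14.8%. With TPM rescaled without mitochondrial genes, an alternative added after seeing the data, FST at 0.42 (limma adjusted p = 0.0784) and INHBA at -0.20 (limma adjusted p = 0.177) were not called. TGFB3, at levels near the pseudocount of 1, was at -0.63 on the log2(TPM + 1) scale without rescaling.

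The order of levels changed at its upper end. In vehicle, the members ran by mean TPM from GREM1 through TGFB1, GDF15, FSTL3, BMP4, TGFB2, INHBA, FST and TGFB3 to INHBB. INHBA and FST were the only neighbours whose libraries overlapped. After the extract GDF15 came first, then GREM1, FSTL3, TGFB1, BMP4, TGFB2, FST, INHBA, TGFB3 and INHBB, and TGFB2 and FST were the only overlapping neighbours.

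RNA for the 3 antagonists among the members grew relative to RNA for the 6 ligands other than GDF15. GREM1, FST and FSTL3 together went from 118 ± 4.12 to 288 ± 45.5 TPM, and the 6 ligands other than GDF15 from 74.4 ± 3.96 to 51.1 ± 4.52 TPM (SD, n = 3). The ratio of antagonist to ligand TPM was 1.62, 1.60 and 1.54 in vehicle and 5.57, 5.23 and 6.06 after the extract. Every treated library had over 5 parts of RNA for these 3 antagonists to 1 of RNA for these 6 ligands. On the log2 scale the ligand to antagonist ratio differed by -1.82 (exact permutation test, two-sided, p = 0.1, the smallest that 3 against 3 libraries allow). GREM1 dominated the antagonist sum, and with it left out the difference was -1.60. Most of the ligand sum was TGFB1, TGFB2 and TGFB3, at 58.5 ± 3.17 and 40.25 ± 3.83 TPM, which are not the ligands named above for these antagonists. Antagonists outside the members are not in the ratio: of 8 tested, 2 were higher and 4 lower, beside 31.9% and 31.0% of all tested genes. Among them DCN, which binds TGF-beta, fell from 122 ± 5.99 to 40.0 ± 8.77 TPM.

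The same direction was measured for BMP4 and for INHBA against the members that bind them; no such ratio was computed for TGFB1, TGFB2 and TGFB3. GREM1 over BMP4 went from 7.20 ± 0.17 to 30.6 ± 4.05 in TPM, without overlap (exact permutation p = 0.1). FST and FSTL3 together over INHBA were at 7.31, 9.73 and 7.67 in vehicle and 19.2, 16.2 and 17.8 after the extract, again without overlap (exact permutation p = 0.1). These are ratios of RNA and not of secreted protein.

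**Figure D3:**
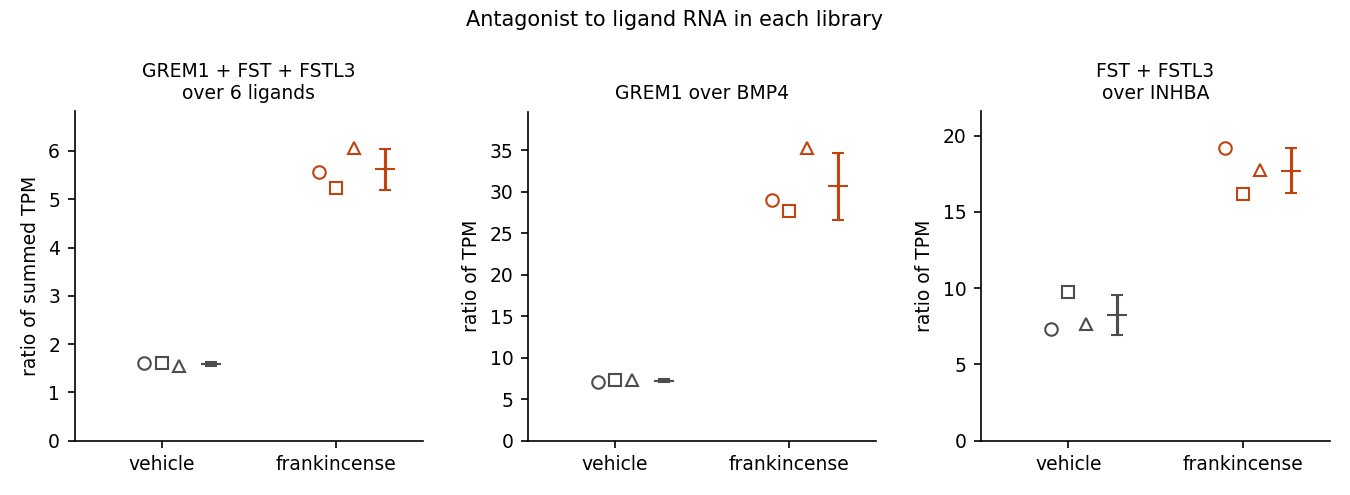
Ratios of TPM in each library, 3 vehicle (grey) and 3 frankincense (orange), with mean and SD beside the points and axes from 0. All treated libraries lie above all vehicle libraries in the 3 panels. For GREM1, FST and FSTL3 over the 6 ligands they lie at 5.23 to 6.06 against 1.54 to 1.62.

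Within the TGF-beta isoforms, TGFB1 made up 87.9% ± 1.41 of their summed TPM in vehicle and 86.6% ± 1.61 after the extract, and TGFB2 10.0% ± 1.81 and 12.3% ± 1.73. Both sets of libraries overlapped (exact permutation p = 0.3 for each). TGFB3 made up 2.33%, 2.33% and 1.63% in vehicle and 1.60%, 0.748% and 0.897% after the extract, without overlap (exact permutation p = 0.1).

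RSEM's effective length, a mean over a gene's transcripts weighted by their abundance, is a second readout of these genes. For FSTL3 it was 1849, 1725 and 1828 bases in vehicle and 1919, 1978 and 1957 bases after the extract. The groups did not overlap, a difference of 8.36%. The exact permutation p was 0.1, and 0.333 when adjusted over the 10 members. For FST the groups overlapped at 1495 to 2144 and 2021 to 2182 bases (exact permutation p = 0.3), and TGFB2 ranged most widely among treated libraries, from 2556 to 4105 bases. The lengths of GDF15 and INHBB did not overlap either (exact permutation p = 0.1 for each), at differences of -0.369% and -0.0501%. INHBB has 1 transcript here, so its difference cannot be one of transcript usage.

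On the count scale other parts of the pathway were lower more often than higher. Beside the members, 75 of 112 pathway genes were tested, of which 13 were higher and 41 lower, with a median log2 change of -0.42 against -0.0016 over all tested genes, of which 31.9% were higher and 31.0% lower. On the log2(TPM + 1) scale 19 were higher and 27 lower, beside 43.8% and 14.8% of all tested genes. Among 26 other ligands 8 were tested, 2 higher and 4 lower, with a median of -0.13 and a mean of 0.050. The 4 became 2 by DESeq2, on TPM, and without frankincense replicate 2, vehicle replicate 1 or vehicle replicate 2. INHBE, an activin subunit best known from liver, rose from 0.347 ± 0.11 to 2.15 ± 0.34 TPM, and BMP8A rose from 0.143 to 0.34 TPM, and was not called once vehicle replicate 3 was removed (edgeR adjusted p = 0.0628). AMH, anti-Mullerian hormone, fell from 70.4 ± 3.13 to 29.6 ± 2.72 TPM, and GDF11 by 1.17 ± 0.082 on the log2 scale.

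Of 13 tested receptors and co-receptors 3 were higher and 6 lower on counts, beside 31.9% and 31.0% of all tested genes. On the TPM scale 4 of these receptors were higher and 2 lower, beside 43.8% and 14.8% of all tested genes. Their median log2 change was -0.19 and their mean 0.044. ACVR1, a type I receptor of BMPs and activins, rose by 0.98 ± 0.067 on the log2 scale to 41.5 ± 5.28 TPM. RET, the co-receptor through which GFRAL signals, went from 0.08 to 0.627 TPM. It held 10, 3 and 7 counts in vehicle and 37, 46 and 30 after the extract. RET passed the filter on low counts only through the treated libraries, so its place among the 3 called higher rests on that group. ENG, endoglin, fell by 1.58 ± 0.049 from 60.2 ± 1.93 to 25.7 ± 2.16 TPM, and TGFBR2, the type II TGF-beta receptor, by 0.44 ± 0.066. BMPR2, the type II BMP receptor, fell by 0.42 ± 0.064 on counts, but was not called in TPM. TGFBR1 was at 0.16 ± 0.073 (edgeR adjusted p = 0.0657). It was called higher with library size scaling (0.24), on the TPM scale (0.40), without a filter on low counts and with a replicate block. The same held without frankincense replicate 2 (0.22) or vehicle replicate 3 (0.21). ACVR2A was at -0.13 ± 0.12 (edgeR adjusted p = 0.343), with the opposite sign in TPM (0.12). GFRAL, the receptor of GDF15, was listed at 0 TPM in all 6 libraries.

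Among 8 SMAD genes 1 was higher and 4 lower on counts, beside 31.9% and 31.0% of all tested genes. With library size scaling 2 were higher. On the TPM scale 3 SMAD genes were higher and 3 lower, beside 43.8% and 14.8% of all tested genes. SMAD3 fell by 1.96 ± 0.055 on the log2 scale, from 59.5 ± 1.72 to 20.6 ± 1.59 TPM, and SMAD6, an inhibitor of BMP signalling and itself a BMP target, by 2.09 ± 0.099. SMAD2 rose by 0.23 ± 0.059 on the same scale. The 8 other antagonists that were tested did not all share the direction of GREM1, FST and FSTL3. Of them 2 were higher and 4 lower on counts, beside 31.9% and 31.0% of all tested genes. KCP, a chordin-like secreted protein that is also known to enhance BMP signalling, rose from 0.55 ± 0.026 to 7.08 ± 0.48 TPM, and BMPER, a BMP-binding protein, by 0.78 ± 0.13 on the log2 scale. DCN, decorin, a matrix proteoglycan that binds TGF-beta, fell by 1.76 ± 0.066, and TWSG1, twisted gastrulation, by 0.68 ± 0.073.

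Genes for TGF-beta latency and activation and for proprotein cleavage were lower in 9 and higher in 1 of 13 tested, beside 31.0% and 31.9% of all tested genes. On the log2(TPM + 1) scale 6 were lower and 1 higher, beside 14.8% and 43.8%. LTBP3, a latent TGF-beta binding protein, fell by 1.26 ± 0.063 on the log2 scale, and ITGB8, an integrin chain that takes part in TGF-beta activation, by 2.02 ± 0.11. LTBP1, at 0.433 ± 0.14 and 0.873 ± 0.13 TPM, was the one that was higher, and its call was lost without frankincense replicate 2 or vehicle replicate 3 (adjusted p of 0.06 and 0.0572).

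Target genes were called in both directions for TGF-beta, and in the main edgeR fit only lower for BMP. Of 19 TGF-beta and activin targets 10 were lower and 4 higher, beside 31.0% and 31.9% of all tested genes, with a median of -0.29. COL1A1, a collagen I chain, fell by 1.36 ± 0.066 from 1444 ± 17.0 to 699 ± 87.5 TPM and CCN2, connective tissue growth factor, by 0.98 ± 0.057. TGIF1, a SMAD corepressor, rose by 0.57 ± 0.060. Of 10 tested BMP targets 8 were lower and 0 higher by edgeR, beside 31.0% and 31.9% of all tested genes, with a median of -0.75. The lists share genes: SMAD6, SMAD7 and SMAD9, all lower, are counted here and among the SMAD genes, and SMAD7 also among the TGF-beta targets. The 75 tested pathway genes count each gene only 1 time. ID1, a classical BMP target, fell by 2.48 ± 0.071 from 182 ± 5.85 to 39.1 ± 2.20 TPM. The 2 not called, HEY1 and MSX1, were named after their values were seen, at 0.43 ± 0.20 and 0.64 ± 0.37 on the log2 scale. The count of BMP targets called higher was also 0 at an unadjusted p under 0.05 and by DESeq2, and it was 1 by limma on log2(TPM + 1), also after rescaling without mitochondrial genes, with library size scaling, without frankincense replicate 3 and without vehicle replicate 2.

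**Figure D4:**
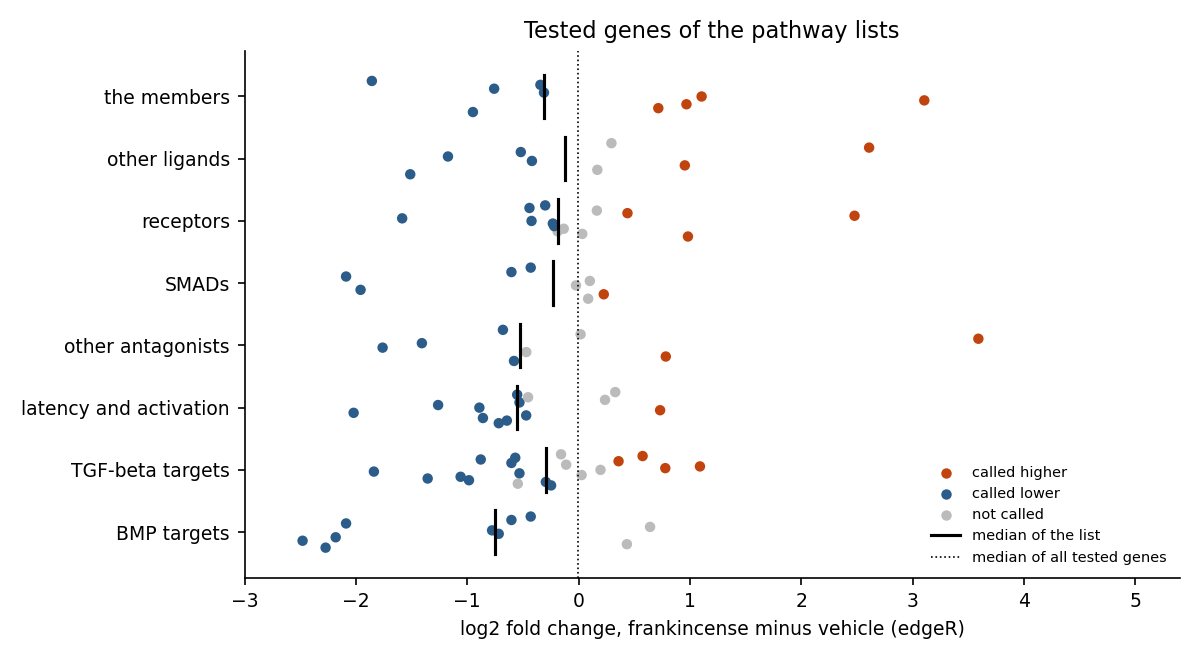
Log2 fold change from edgeR of each tested gene in the members and 7 pathway lists, orange where called higher, blue where called lower and grey where not called, with black bars for list medians and a dotted line for all tested genes. The 10 tested BMP targets have 8 genes called lower and a median of -0.75.

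Factors known to act on the GDF15 gene were split. DDIT3 (CHOP) rose from 50.2 ± 3.45 to 340 ± 11.7 TPM and ATF3 from 4.56 ± 0.68 to 29.9 ± 1.04 TPM. ATF4 rose by 0.50 ± 0.074 on the log2 scale. EGR1 fell by 1.20 ± 0.082 and SP1 by 0.61 ± 0.051. CEBPB was at 0.25 ± 0.13 (edgeR adjusted p = 0.13), and was called higher without frankincense replicate 3 (0.39) and under 5 other alternatives.

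By Euclidean distance between centred log2 CPM over the 6 libraries, the 5 genes nearest to GDF15 among 11842 were GADD45A (distance 0.264), TRIB3 (0.265), FICD (0.285), SLC3A2 (0.319) and HKDC1 (0.330). Their log2 fold changes ran from 2.93 to 3.37. Since 2 conditions separate the libraries, this likeness is mostly that of the size of the difference between groups.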

How the data were processed

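Each library has 1 deposited table, in which the authors' expected counts come from RSEM, per the file headers. TPM and FPKM in the same tables are scaled to gene length and depth by the authors' software, per the file headers; FPKM served only for an alternative of the ratios. STAR, RSEM 1.3.1 and GRCh38 were used, per the submitters' processing notes; STAR's version, the annotation and filters were not given in the sources used here. Whether the kit preserves strand is not said. Of 60616 gene identifiers, 19 had no symbol. Gene positions are from GENCODE 29 (GRCh38).

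After rounding, expected counts went into edgeR's two-sided quasi-likelihood test (edgeR 4.0.16, R 4.3.3; robust fit, TMM factors, genes kept by filterByExpr) with Benjamini-Hochberg adjustment over 16719 genes. A gene was called at adjusted p under 0.05. The SE is the absolute log2 fold change over the square root of F. Ratios and lengths were compared with exact permutation tests over libraries (SciPy 1.17.1). The fit was tested on simulated counts in which far fewer genes changed than were called here, so that test does not cover the scaling in these data. Alternatives were other scalings and filters, DESeq2 1.42.0, limma 3.58.1 on log2(TPM + 1), a replicate block and leaving out each library. Chi-square statistics per degree of freedom between libraries of a group were 3.65 to 12.9, so none was counted as a duplicate.

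The members and lists were chosen with earlier results of these data known. Named genes are the members, the 2 most strongly called genes in each direction of each list, the factors known to act on GDF15, 5 receptors, and the 5 genes nearest to GDF15 in profile; some that the rule names are not reported here.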

Additional observations from a re-analysis of the deposited data

How the results depend on the processing

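Tested members kept their direction under each alternative that gave a value; a minimum of 5 CPM in 3 libraries removed TGFB3, and FST passed it only through the treated libraries. TGFB2 was the least stable member: its log2 fold change was -0.27 with library size scaling, -0.20 by limma on log2(TPM + 1), -0.37 on TPM rescaled without mitochondrial genes (chosen after seeing the data), and -0.25, -0.29 and -0.29 without frankincense replicate 1, frankincense replicate 2 and vehicle replicate 3, none of them called, and it ran from -0.49 to -0.25 over libraries left out. INHBA was not called on TPM (-0.044) or rescaled TPM (-0.20), nor FST on rescaled TPM (0.42). The members called lower numbered 3 on both TPM scales. On TPM, 2474 genes in all and 27 pathway genes were called lower, against 5177 and 41 on counts, and higher calls made up 74.8% of calls against 50.7%. With a minimum of 5 CPM in 3 libraries, 8 pathway genes were higher, against 13. The ligand to antagonist difference without GREM1 was -1.60. ACVR2A changed sign on TPM (0.12). The causes were not tested. With the replicate number as a block, 5347 genes were higher and 5244 lower, and 4 members were higher and 5 lower. Deviations of same-numbered libraries correlated at 0.050, 0.10 and 0.035, so the numbers were not taken to pair them, although each library correlated best with its own number. TGFB3, at 15 to 92 counts, and INHBB are limited by depth.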
